A study of Caenorhabditis elegans with 2 samples.

Results

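The 10 heterochronic genes ain-1, ain-2, sea-2, lin-14, lin-28, lin-41, lin-42, lin-46, hbl-1 and alg-1, of 19973 protein-coding genes on the 6 nuclear chromosomes, were examined for regions bound by a tagged transcription factor in first-stage (L1) larvae of Caenorhabditis elegans. They were taken as a named list of genes that time the larval stages from L1 on, not by their signal. For each gene, every region was listed whose summit lay in the gene body or within 5 kb of it. The assay was ChIP-seq, which recovers and sequences the DNA fragments that a tagged protein carries when it is pulled down with an antibody to its tag. The 2 libraries form 1 group, biological replicates 1 and 2, from whole L1 larvae of mixed sex of strain OP355, whose age is given as unknown. OP355 carries the allele unc-119(tm4063) on chromosome III and the integrated transgene wgIs355, which supplies a GFP-tagged protein. No other genotype, stage or treatment was compared. The labels give different names for the tagged gene: mdl-1 stands in the antibody field and ZK337.2, called klu-1 in the annotation, in the description. The promoter of the transgene, not given in the sources used here, could limit the cells that carry the tagged protein. Whole larvae were used, so the cell types that gave a region cannot be told apart.

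Heterochronic genes set the order in which cells of the larva run through stage-specific programmes. In L1 the transcription factor LIN-14 and the RNA-binding protein LIN-28 are present and early fates are kept, and the microRNAs lin-4 and let-7, with the let-7 family, later bring down lin-14, lin-28, hbl-1 and lin-41 so that later programmes follow. MicroRNAs act in a complex of an Argonaute protein such as ALG-1 and a GW182-family protein, AIN-1 or AIN-2, so the list holds both the timed regulators and the machinery that acts on them.

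Regions came from 4 deposited lists on build ce11: a relaxed list of 30000 regions for the pooled data, one for each replicate, and a thresholded list of 259. The relaxed lists, meant for a comparison of replicates by irreproducible discovery rate, hold background as well as peaks, per their names. A relaxed pooled region lay in the window of 96.8% of all protein-coding genes. The 259 thresholded regions were exactly those of highest signal in the pooled list, the lowest at 49.79 and the highest region that did not pass at 49.71. Signal is the deposited value of each region, with a scaling not given in the sources used here, and rank 1 is the highest signal in a list. Pooled and replicate signals are each on their own scale. The files give no read counts, so depth is unknown, and no test between conditions was possible. The strongest region of all, at mdl-1, reached 503.3 in the pooled data (replicate 1 190.5, replicate 2 294.6), and the nearest of the 4 heterochronic genes on the same chromosome, X, lay 920 kb away.

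The sequences below are 101 bases centred on the pooled summit, read on the plus strand of WBcel235 (ce11) from the RefSeq genome. They are the regions of ain-1 and sea-2 that passed the threshold, the strongest region at lin-14, which lies at its 5′ end, and the 1 thresholded region at another gene of the pathway, nhl-2. Capitals mark the sequences that were searched for. CACGTG is an E-box. GAGAGAG is a repeat that can stand on either strand, and in the sea-2 sequence it is on the minus strand. CGTCTC, the last of them, was added after these summit sequences were seen, so its presence in them supports nothing.
ain-1 (chrX:16612404-16612504): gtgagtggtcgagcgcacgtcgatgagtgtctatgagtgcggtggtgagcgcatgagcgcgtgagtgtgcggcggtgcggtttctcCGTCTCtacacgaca
sea-2 (chrII:3958811-3958911): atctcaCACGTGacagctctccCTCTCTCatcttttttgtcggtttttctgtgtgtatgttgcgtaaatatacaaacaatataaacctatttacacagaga
lin-14 (chrX:11465446-11465546): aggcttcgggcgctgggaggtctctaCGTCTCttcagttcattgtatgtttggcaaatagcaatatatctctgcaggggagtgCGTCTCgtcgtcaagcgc
nhl-2 (chrIII:4899815-4899915): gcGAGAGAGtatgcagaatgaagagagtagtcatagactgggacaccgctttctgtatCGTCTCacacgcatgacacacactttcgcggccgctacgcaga

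A thresholded region lay in the window of 2 of the 10 heterochronic genes, ain-1 and sea-2, each with 1. The same was true of 2.98% of all protein-coding genes, of 3.57% of the 10598 with a window as wide as those of the heterochronic genes (11876 to 31764 bp), and of 5.21% of the 1939 with a window at least as wide as their median of 16919 bp. The share among the 10 genes rests on 2 genes of a list chosen with earlier results of these data known, so it was not tested. At the other 8 genes the highest pooled signal ran from 21.00 at lin-46 to 37.21 at lin-14, below the lowest thresholded region. The highest signal at any of the 10 genes outside the thresholded list was 40.36, at a second region upstream of ain-1.

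**Figure D1:**
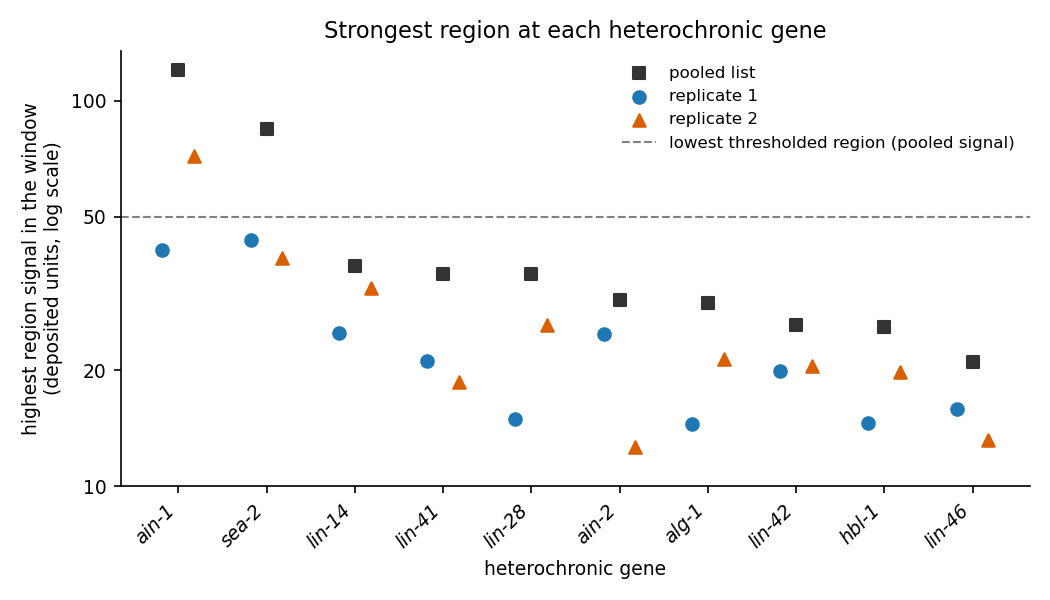
The vertical axis is the highest region signal in the window of each gene, in deposited units on a log scale, for the pooled list (squares), replicate 1 (circles) and replicate 2 (triangles), and the horizontal axis lists the 10 genes by pooled signal. The pooled squares of ain-1 (120.4) and sea-2 (84.64) lie above the dashed line at the lowest thresholded signal (49.79), and those of the other 8 genes lie below it. The line applies to pooled signals only.

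The strongest region at any of these genes was upstream of ain-1 (WBGene00015547, chromosome X, 16613451 to 16616871, plus strand), which encodes a GW182-family protein of the microRNA complex. It spanned 16612284 to 16612623, in intergenic sequence, and its summit lay 997 bp before the 5′ end. The pooled signal was 120.4 (rank 38), with 40.98 in replicate 1 (rank 86) and 71.63 in replicate 2 (rank 32). Both replicates placed it within their own 259 strongest regions, with summits 9 and 0 bp from the pooled summit. Its printed sequence has a GC content of 61.4% and 1 CGTCTC, and holds no CACGTG. A second region, at 16612963 to 16613302 with its summit 318 bp upstream, had a pooled signal of 40.36 (rank 501), with 24.16 in replicate 1 (rank 608) and 18.36 in replicate 2 (rank 1660). These regions also lie in the window of the neighbouring gene F59C12.3, but the nearest protein-coding 5′ end to both is that of ain-1. The other 4 regions of ain-1 had pooled signals of 16.14 to 23.79. Of these, only the weakest had a searched sequence, CGTCTC, and the 1 in the gene body, in an intron, had a region in replicate 2 (15.55, rank 3879) and none in replicate 1.

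The related gene ain-2 (WBGene00015007, chromosome I, 4653467 to 4660153, plus strand) encodes the other GW182-family protein. Its 6 pooled regions had signals of 16.52 to 30.45. The highest of them (rank 2209), at 4664744 to 4665083, lay beyond the 3′ end, 11447 bp from the 5′ end, in a coding exon of B0041.1 and 406 bp inside that gene. Replicate 1 had it at 24.84 (rank 501). Replicate 2 had a weaker region, 4664963 to 4665302 at 12.46 (rank 9962), that overlaps it by 121 bp, but with its summit 219 bp away, past the limit of 200 bp that counted here as a match. The other 5 regions of ain-2 reached at most 20.13, and 4 of the 6 lay in the gene body. The strongest region that replicate 2 had anywhere in this window was 12.59 (rank 9547). So of the related genes ain-1 and ain-2, ain-1 had a region high in both libraries, and the strongest near ain-2 lay inside another gene and was high in replicate 1 but not in replicate 2.

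The Argonaute gene alg-1 (WBGene00000105, chromosome X, 13949110 to 13956261, plus strand) encodes the protein that holds the microRNA in that complex. Its strongest region, 13948868 to 13949207, had a summit 72 bp upstream of the 5′ end and a pooled signal of 29.78 (rank 2534). Replicate 1 had 10.77 there (rank 25331), and replicate 2 had 21.39 (rank 747) with its summit 134 bp away, in the 5′ UTR. The libraries thus placed the 5′ end of alg-1 far apart in rank. The other 5 regions had pooled signals of 19.22 to 21.99 and each was in 1 replicate only. GAGAGAG was present at 2 of them, in the 3′ UTR (20.27) and beyond the 3′ end (19.37).

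The zinc finger gene sea-2 (WBGene00004751, chromosome II, 3950377 to 3972140, plus strand), an autosomal signal in sex determination that also acts in developmental timing, had the other thresholded region. It spanned 3958691 to 3959030 in an intron of sea-2, 8484 bp downstream of the outermost 5′ end and 3362 bp upstream of the nearest start of another annotated transcript of the gene. The pooled signal was 84.64 (rank 79), with 43.40 in replicate 1 (rank 73) and 39.07 in replicate 2 (rank 125). Both replicates again held it among their 259 strongest, with summits 43 and 6 bp from the pooled one. It was the only region of the 10 genes with CACGTG within 50 bp of the pooled summit, starting at base 7 of the printed sequence, with its centre 41.5 bp from the summit, and it also holds the minus-strand GAGAGAG. Its GC content of 36.6% compares with a median of 49.5% over the thresholded regions.

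Within the same long gene, 3 further intronic regions were present in both libraries. The region at 3953680 to 3954019, 3473 bp from the 5′ end, had a pooled signal of 34.57 (rank 1061), with 11.25 in replicate 1 (rank 22726) and 23.23 in replicate 2 (rank 514). The region 5209 bp from the 5′ end had a pooled signal of 29.15 (rank 2875), with 13.58 in replicate 1 and 13.16 in replicate 2. The last of the 3, 13542 bp from the 5′ end and 421 bp from another transcript start, had 22.93 (rank 9513), with 12.56 in replicate 1 and 8.91 in replicate 2. All 3 were weaker in both libraries than the thresholded region. At the outermost 5′ end of sea-2 itself, 154 bp upstream, the pooled signal was 19.50 (rank 17327), with a region in replicate 1 only (12.45). The signal of sea-2 was therefore highest inside the gene and not at its annotated first start, and the other 4 regions had pooled signals of 16.76 to 19.74.

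The gene lin-14 (WBGene00003003, chromosome X, 11465560 to 11485871, plus strand), a transcription factor of L1 fates and the target of lin-4, had the largest number of pooled regions of the 10 genes, 14, of which 11 were in the gene body. Its strongest, 11465326 to 11465665, had a summit 64 bp upstream of the 5′ end and a pooled signal of 37.21 (rank 721). Replicate 2 had 32.62 there (rank 188, within its own 259 strongest), and replicate 1 had no region within 200 bp. Farther off, replicate 1 had summits 611 bp upstream of the 5′ end (18.34, rank 3176, no pooled match) and 443 bp downstream (11.64, rank 20712). The region at the lin-14 5′ end was thus high in 1 library and not listed in the other, and it did not pass the threshold. Its sequence holds CGTCTC at 2 places, and its GC content is 52.5%.

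The next regions of lin-14 were in introns and in both libraries. The summit 7937 bp from the 5′ end had a pooled signal of 34.03 (rank 1158), with 24.90 in replicate 1 (rank 494) and 12.76 in replicate 2 (rank 9101). That at 1624 bp, which overlaps the non-coding gene T25C12.7, had 32.85 (rank 1408), with 11.32 in replicate 1 (rank 22365) and 13.57 in replicate 2 (rank 7140). The highest ranks therefore came from different places in the gene, the 7937 bp region in replicate 1 and the 5′ end in replicate 2. The other 11 regions had pooled signals of 15.98 to 24.82, the lowest at the bottom of the relaxed list. Replicate 1 had 14 regions in the whole lin-14 window and replicate 2 had 24, of which 14 had no pooled summit within 200 bp.

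The gene hbl-1 (WBGene00001824, chromosome X, 5822142 to 5827755, plus strand) encodes a Hunchback-like zinc finger transcription factor that the let-7 family represses. It had 9 pooled regions with signals of 16.62 to 25.84. The strongest (rank 5537), 5821427 to 5821766, had a summit 545 bp upstream of the 5′ end, with 12.93 in replicate 1 (rank 14925) and 16.66 in replicate 2 (rank 2799). Replicate 2 had its own strongest region elsewhere, 2568 bp upstream, at 19.79 (rank 1108), where the pooled signal was 16.80 and replicate 1 had no region. No place near hbl-1 ranked within the first 1000 of any of the 3 relaxed lists.

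The gene lin-28 (WBGene00003014, chromosome I, 8407630 to 8410804, minus strand) encodes an RNA-binding protein that blocks the maturation of let-7. Its strongest region, 8409699 to 8410038, lay in the 5′ UTR, 935 bp from the outermost 5′ end and 51 bp from the start of another transcript of the gene. The pooled signal was 35.40 (rank 939), with 12.71 in replicate 1 (rank 15815) and 26.13 in replicate 2 (rank 342). GAGAGAG was present near the summit, which replicate 2 placed at the same base as the pooled list and replicate 1 placed 88 bp away. The region was therefore in both libraries but much higher in rank in replicate 2. The second region (28.95, rank 3013) lay beyond the 3′ end in an intron of F02E9.3, with 10.37 in replicate 1 and 12.58 in replicate 2, and the other 4 had pooled signals of 16.12 to 21.18.

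The gene lin-41 (WBGene00003026, chromosome I, 9334800 to 9342496, minus strand) encodes a TRIM-NHL RNA-binding protein and is a let-7 target. Its strongest region, 9344022 to 9344361, was intergenic, 1696 bp upstream of the 5′ end, with a pooled signal of 35.46 (rank 930). Replicate 1 had 13.05 there (rank 14473) with its summit 184 bp away, close to the limit of 200 bp for a match and nearer to a weaker pooled region (18.78), and replicate 2 had 17.90 (rank 1911). A region 2720 bp upstream, in a coding exon of M04C9.2, had 28.92 (rank 3033), with 13.67 in replicate 1 and 18.61 in replicate 2. In the 3′ UTR of lin-41, 7360 bp from the 5′ end, a region of 28.91 (rank 3041) was present in replicate 1 at 19.42 (rank 2288) and not in replicate 2. The strongest region of replicate 1 in this window, at 21.10 (rank 1363), lay in the 3′ UTR of cbl-1, beyond lin-41, and was not in replicate 2. The 2 strongest upstream regions were thus in both libraries, and the strongest regions on the 3′ side were in replicate 1 only.

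The gene lin-42 (WBGene00018572, chromosome II, 1233236 to 1252359, minus strand), the homologue of the Period genes of the circadian clock, had 9 pooled regions with signals of 17.06 to 26.18, of which 8 were in the gene body. The strongest, 1236415 to 1236754 (rank 5176), lay in an annotated 5′ UTR, 384 bp from the nearest transcript start of the gene and 15774 bp from the outermost 5′ end, and was in replicate 2 only, at 20.47 (rank 939). The next (24.35, rank 7263) lay 17 bp from the start of another transcript and was in replicate 1 only, at 19.90 (rank 1981). Just 1 of the 9 regions, the weakest, was in both libraries, with 12.80 in replicate 1 and 11.27 in replicate 2. The summits at lin-42 that ranked highest thus differed between the libraries.

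The gene lin-46 (WBGene00003031, chromosome V, 12968855 to 12970730, plus strand) encodes a gephyrin-like protein that acts downstream of lin-28. It had the fewest pooled regions, 3, with signals of 18.72, 19.03 and 21.00 (best rank 13372), and none was in the gene or upstream of it. They lay 2581, 3647 and 4899 bp from the 5′ end, beyond the 3′ end and within pnn-1 or shw-3. The strongest, 12973584 to 12973923, was in replicate 1 only, at 12.87 (rank 15145). The 1 region in both libraries had 11.47 in replicate 1 (rank 21613) and 13.18 in replicate 2 (rank 8034). A further region of replicate 1, at 15.81 (rank 6788), was in neither replicate 2 nor the pooled list. No region in the window of lin-46 ranked within the first 1000 of any relaxed list.

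**Figure D2:**
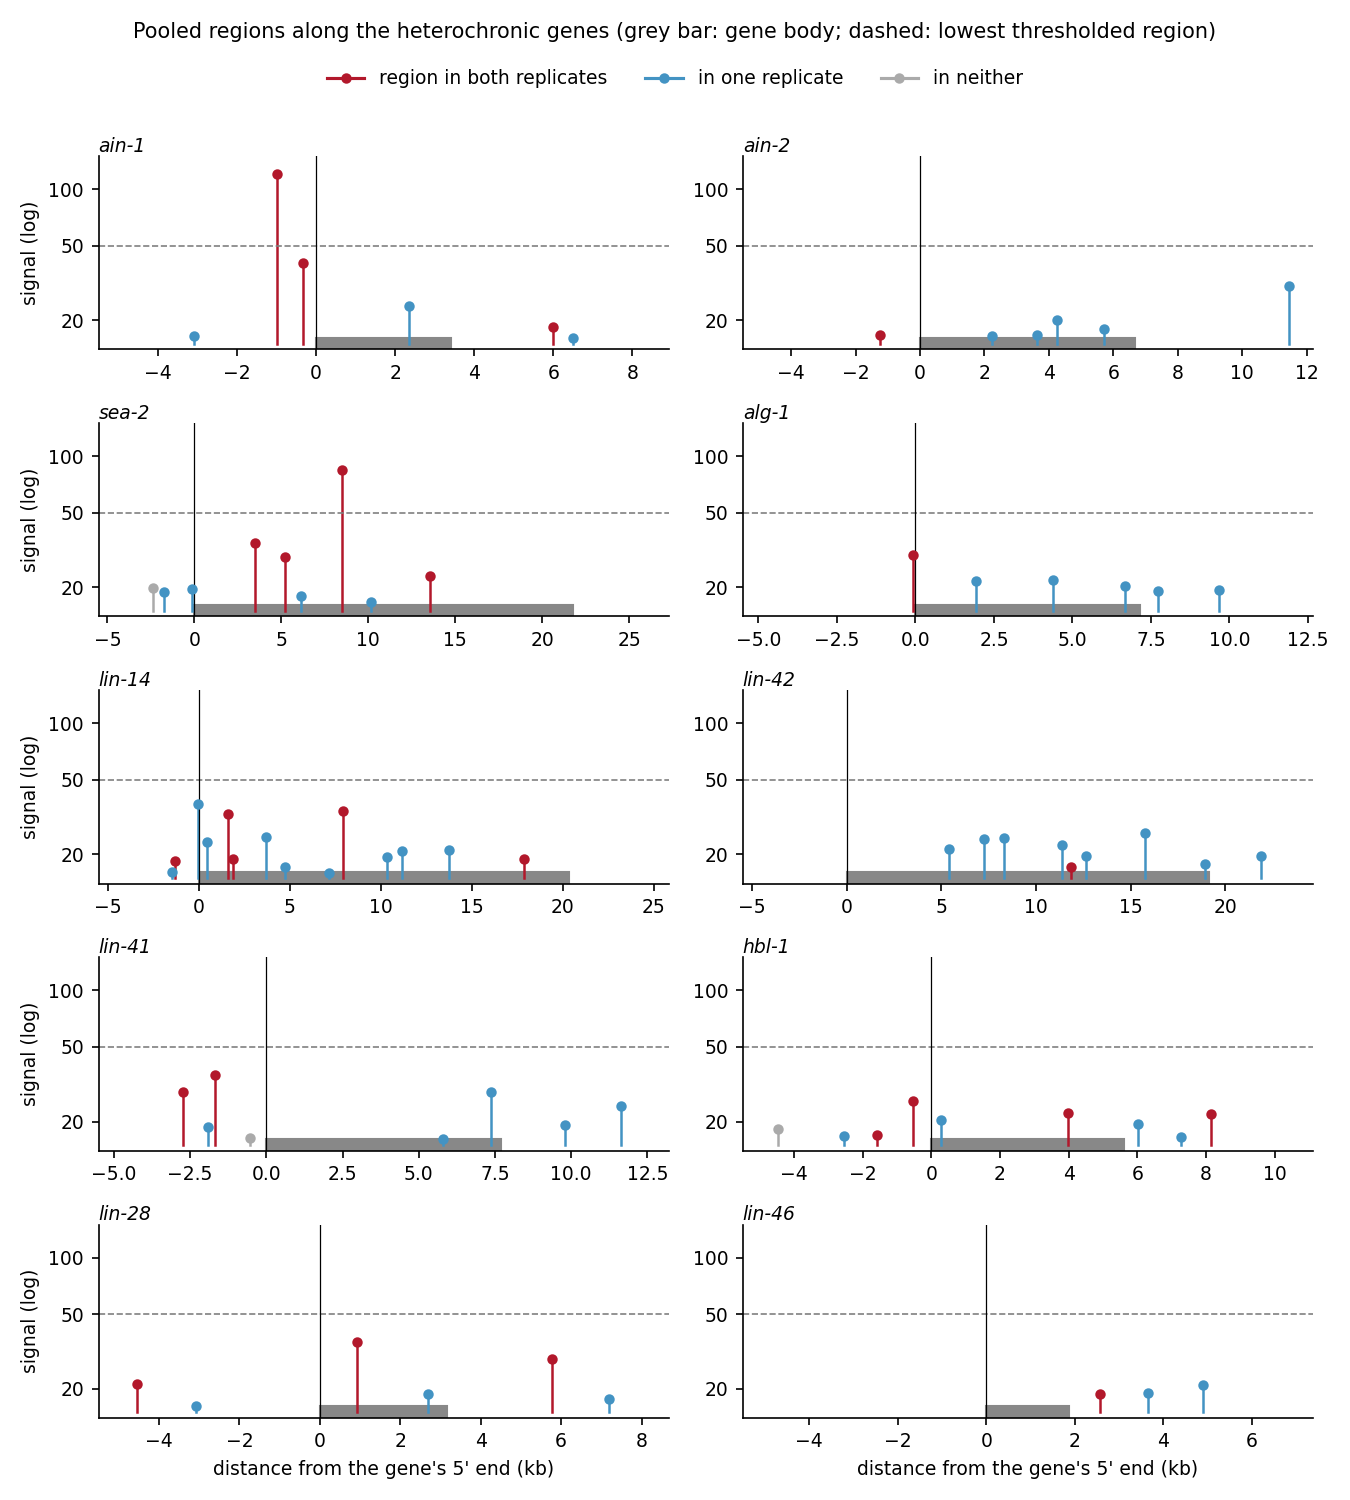
Each panel is 1 gene, with the distance of region summits from its 5′ end in kb on the horizontal axis, read along the direction of transcription, and the pooled signal on a log scale on the vertical axis. Grey bars are gene bodies, the dashed line is the lowest thresholded signal, and colours give whether the region had a match in both replicates (red), in 1 (blue) or in neither (grey). Red stems pass the dashed line just upstream of ain-1 and in the middle of sea-2, and the stems of lin-46 all lie beyond its 3′ end.

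By place, 39 of the 76 pooled regions of the 10 genes were in the gene body, 21 upstream and 16 beyond the 3′ end, and 4 of the upstream and 9 of the downstream regions were inside another protein-coding gene. Introns held 42.1% of the 76 regions against 32.6% of all pooled regions, coding exons 14.5% against 24.4%, and intergenic sequence 31.6% against 34.3%. The 3′ UTR held 7.89% against 3.43% and the 5′ UTR 3.95% against 1.69%, from 6 and 3 regions. Between 1000 bp upstream and 500 bp downstream of the outermost 5′ end lay 9 regions, at 6 of the 10 genes, and the strongest region lay there in 4 genes, ain-1, lin-14, hbl-1 and alg-1. It was within 1000 bp of some annotated transcript start of the gene in 6, with lin-28 and lin-42 added. Counts in the gene body, upstream, beyond the 3′ end and near 5′ ends have no value over all genes beside them. No preference for a place can be read from those counts. Of the 76 regions, 37 also lay in the window of another protein-coding gene, so the count is not one of regions that belong to these genes alone.

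The 76 regions in 196822 bp of windows came to 3.86 per 10 kb, against 2.99 per 10 kb over the genome. The mean was 7.60 regions per gene, against 4.48 for protein-coding genes with windows in the same range of widths. Widths were not matched within that range, so these means are not like for like. The median window was 16919 bp for the 10 genes and 12027 bp over all protein-coding genes. The median pooled signal of the 76 regions was 19.70, against 20.34 over all pooled regions. Regions were thus denser per 10 kb here but the typical one was no higher. Of the 76, 6 ranked within the first 1000 (7.89%, against 3.33% of all), namely 2 at ain-1 and 1 each at sea-2, lin-14, lin-28 and lin-41. Passing regions were 2 of 76, against 0.863% of all pooled regions.

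Replicate agreement was read by matching summits at most 200 bp apart. A match in both replicates was found for 25 of the 76 regions (32.9%, exact 95% interval 22.5% to 44.6%, for counting error only), against 24.9% of all pooled regions. Replicate 1 matched 51 (67.1%, against 60.7%) and replicate 2 matched 47 (61.8%, against 53.9%). In 3 cases, 1 at lin-41 and 2 at lin-14, a single replicate 1 region matched 2 pooled regions. A match in replicate 1 alone was found for 26, in replicate 2 alone for 22 and in neither for 3, or 3.95% against 10.3% of all pooled regions. The interval of the share in both replicates holds the value over all pooled regions. The share depended on the matching rule: with summits at most 50 bp apart it was 11.8%, against 11.2% of all pooled regions, and with any overlap of the regions it was 36.8%, against 30.0%. The 3 regions that overlap added, 1 each at ain-2, lin-14 and lin-41, had matched replicate 1 alone.

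Taken the other way, 25 of the 72 replicate 1 regions in the windows (34.7%) had a match in replicate 2, against 24.4% of all 30000. Of the 89 replicate 2 regions, 26 (29.2%) had a match in replicate 1, also against 24.4%. No pooled summit lay within 200 bp for 23 of the 72 and 41 of the 89, and no such share over the whole lists is given to set beside them. The median signal was 12.75 in replicate 1 (12.91 over its whole list) and 11.59 in replicate 2 (11.01 over its list). Among each replicate's own 259 strongest regions, replicate 1 had 2 in these windows, at ain-1 and sea-2, and replicate 2 had 3, with lin-14 added. Over all protein-coding genes, 3.06% had such a region of replicate 1 in the window, 2.81% of replicate 2 and 1.47% of both.

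Of the 25 regions in both libraries, 18 ranked higher in replicate 2 and 7 in replicate 1, and in 5 the ranks differed by more than 10 times. These counts have no value over all pooled regions in both libraries beside them, so they are not read as particular to the 10 genes. By the 200 bp rule, the strongest region of a gene was in both libraries for 6 of the 10, ain-1, sea-2, lin-28, lin-41, hbl-1 and alg-1. At lin-28, lin-41 and alg-1 a replicate summit lay 88, 184 and 134 bp from the pooled summit, so these would not match at 50 bp. For lin-14 and lin-42 the strongest region was in replicate 2 only, and for lin-46 in replicate 1 only, with no overlapping region in the other library. For ain-2 a match was found in replicate 1 only, beside the overlapping region of replicate 2 described above. Among all pooled regions ranked 260 to 1000, where the strongest regions of lin-14, lin-28 and lin-41 stand, 88.5% were in both libraries, so lin-14 is among the minority of its rank range. For ranks 1001 to 3000, which hold ain-2 and alg-1, the share was 72.6%.

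**Figure D3:**
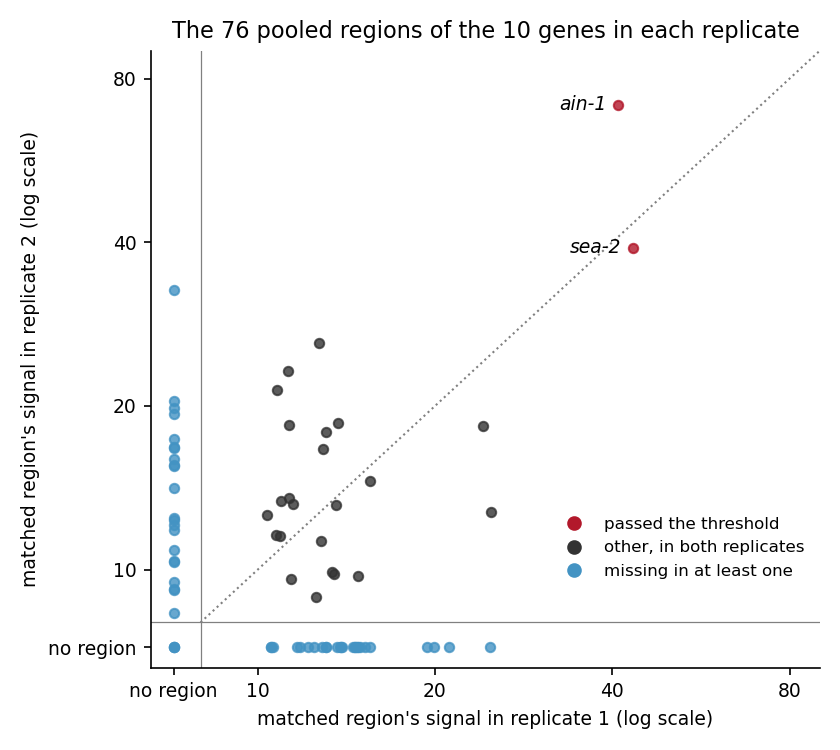
Each point is 1 of the 76 pooled regions of the 10 genes, with the signal of its matched region in replicate 1 on the horizontal and in replicate 2 on the vertical log axis, and regions without a match drawn in the margins. The dotted line marks equal signal. The thresholded regions of ain-1 (40.98 and 71.63) and sea-2 (43.40 and 39.07) lie apart from the other 23 regions with a match in both, and the highest point in the left margin is the lin-14 5′ end, at 32.62 in replicate 2.

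Set among all protein-coding genes by the strongest region in the window, 0.411% of genes had a stronger pooled region than ain-1 and 0.836% a stronger one than sea-2. For lin-14 the share was 8.22%, for lin-41 10.8%, for lin-28 10.9%, for ain-2 24.2% and for alg-1 27.4%. The genes lin-42 (47.9%), hbl-1 (50.2%) and lin-46 (80.6%) stood at or below the middle. The median of the strongest signals was 32.92 for the 10 genes, against 26.12 for all protein-coding genes. It was 26.72 for those of the same range of widths, which were not matched in width within that range.

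The order depended on the library for several genes. For ain-1 the share of genes with a stronger region was 0.906% in replicate 1 and 0.340% in replicate 2, and for sea-2 it was 0.766% and 1.40%, so both stayed within the first 2% in each library. For lin-28 it was 65.5% in replicate 1 and 3.78% in replicate 2. For alg-1 it was 69.3% in replicate 1 and 8.36% in replicate 2, and for hbl-1 68.3% and 12.6%. The gene ain-2 went the other way, with 6.04% in replicate 1 and 70.6% in replicate 2. For lin-14 it was 5.98% and 2.04%, for lin-41 15.8% and 17.1%, for lin-42 22.2% and 10.7%, and for lin-46 56.7% and 64.2%. Neighbours in the pooled order, ain-1 and sea-2 included, therefore change places between libraries. With 2 libraries of unknown depth the order of the genes was not tested.

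**Figure D4:**
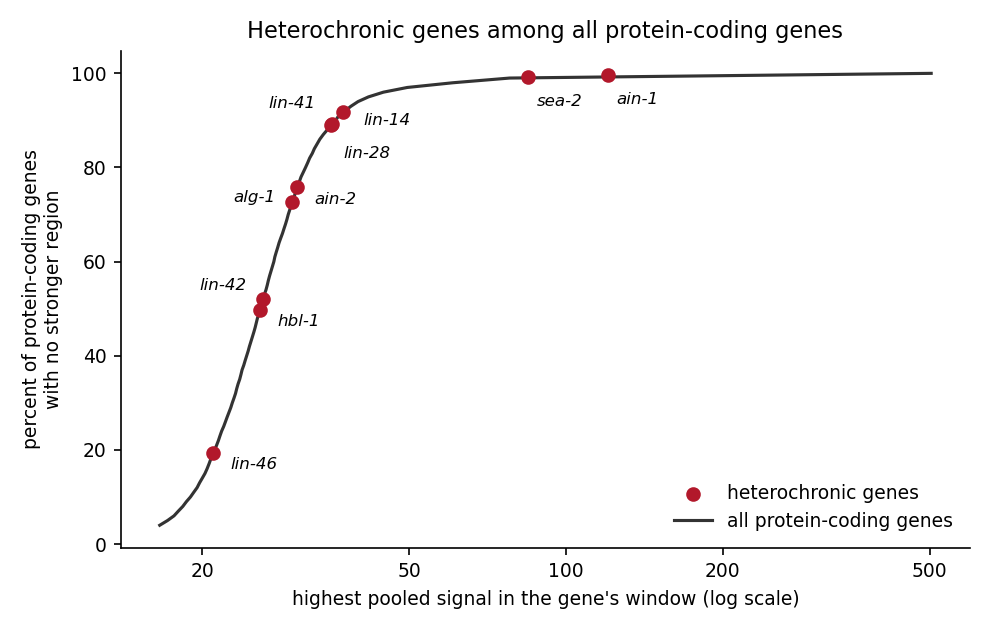
The horizontal axis is the highest pooled signal in a gene's window on a log scale, and the vertical axis is the percentage of protein-coding genes with no stronger region. The line, drawn through whole percentiles, is all 19973 protein-coding genes and the points are the 10 heterochronic genes. The points of ain-1 and sea-2 lie at the top right, those of lin-14, lin-41 and lin-28 near 90%, and that of lin-46 (80.6% of genes stronger) at the lower left.

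The 4 named sequences were looked for near the summits, up to 50 bp to either side of each pooled summit and on both strands, and overlapping matches were allowed; CACGTG reads the same on both strands. CACGTG, the E-box that proteins of the MAD and MAX type bind, was present at 1 of the 76 regions (1.32%), against 2.49% of all pooled and 25.1% of thresholded regions. CATGTG was present at 2 (2.63%), at lin-14 and lin-42, against 3.50% and 9.65%. GAGAGAG was present at 6 (7.89%), against 2.01% and 17.4%, namely 2 each at sea-2 and alg-1 and 1 each at lin-14 and lin-28. CGTCTC, which was added after these summit sequences were seen and so supports nothing, was present at 9 (11.8%), against 3.44% and 25.9%. The median GC content near the summit was 39.6%, against 35.6% over all pooled regions.

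Among 26 other genes of the heterochronic pathway and the small RNA machinery, 20 protein-coding and 6 for microRNAs, 25 had a relaxed pooled region in the window (lep-2 had none) and 1 had a thresholded region. Over all protein-coding genes the shares were 96.8% and 2.98%. The pathway gene with a thresholded region was nhl-2, which encodes a TRIM-NHL cofactor of the microRNA complex. The region, 4899695 to 4900034 on chromosome III, had its summit 780 bp upstream of nhl-2, in the non-coding gene F26F4.14, and the nearest protein-coding 5′ end is that of tag-340, 643 bp away. The pooled signal was 66.87 (rank 137), with 26.21 in replicate 1 (rank 375) and 49.03 in replicate 2 (rank 68). It was thus in both libraries, and among the 259 strongest of replicate 2 but not of replicate 1. Its sequence holds GAGAGAG and CGTCTC.

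The strongest pooled signals of the other pathway genes stayed below the threshold, and the median over the 25, nhl-2 included, was 31.77. Of the microRNA genes, lin-4 had 26.44 (rank 4931), 4849 bp upstream and in a coding exon of F59G1.4, in replicate 2 only (11.39). For let-7 it was 35.96 (rank 875), 4624 bp upstream and in a coding exon of C05G5.2, with 17.98 in replicate 1 and 16.64 in replicate 2. The genes mir-48 and mir-241 share 1 region of 23.49, in replicate 1 only (13.85). In both libraries were the regions of mir-84 (32.25) and mir-237. That of mir-237 was the highest of the 6, 38.49 (rank 623), beyond its 3′ end and nearest to hil-3. Further values were picked out after they were seen. For daf-12, the steroid hormone receptor that gates the let-7 family, the strongest region (36.53, rank 790) was in replicate 2 only, at 27.05 (rank 304). For dcr-1, which encodes Dicer, it was 33.94 (rank 1169), in an intron 759 bp from the 5′ end, with CACGTG near the summit and 16.59 in replicate 1 and 19.26 in replicate 2. Of the 36 genes in both lists, those with a thresholded region were therefore ain-1, sea-2 and nhl-2, beside 2.98% of all protein-coding genes. Both lists were chosen with earlier results of these data known, so the count was not tested.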

How the data were processed

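ChIP-seq regions of 2 L1 libraries were read from the authors' deposited lists on build ce11. Per the readme texts deposited with them, each relaxed list was made from aligned reads and a control, and the thresholded one from the relaxed lists of the pooled data and of each replicate. The control was not analysed here. Not given in the sources used here were aligner, peak caller and threshold. The deposited signal has no stated scaling, and the summit is the deposited offset within each region. If the libraries differ in depth, signals and ranks of weak regions could shift. Gene ends came from Ensembl release 115 (WBcel235), with which 93.3% of the 19530 genes matched by symbol in RefSeq shared the 5′ end, as did 9 of the 10 heterochronic genes. Positions are relative to the outermost 5′ end, negative values being upstream, and coordinates are 1-based. The members, the pathway list and the sequences searched were chosen with earlier results of these data known. All 10 genes were named, with every thresholded and each strongest region in full, and pathway genes where they had a thresholded region. Also named were the microRNA genes, lep-2, which had no pooled region, and daf-12 and dcr-1, picked out after their values were seen. Counts were tested on simulated data, where 200 of 200 genes with planted regions were recovered. No p-value was computed, since there is 1 group of 2 biological replicates, each with a biosample of its own per the labels. Intervals are exact Clopper-Pearson at 95%. Scripts used python 3.11.15, pandas 2.3.3, numpy 2.4.6, scipy 1.17.1 and matplotlib 3.10.9. Alternatives changed the window, matching distance, sequence window, annotation, build, threshold and replicates.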

Additional observations from a re-analysis of the deposited data

How the results depend on the processing

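The number of heterochronic genes with a thresholded region stayed at 2 with windows of 2 kb and 10 kb, with RefSeq gene ends, in the upper 130 thresholded regions, among the 121 in the strongest sets of both replicates, and in the ce10 list of 236, where the regions of ain-1 and sea-2 were found by signal within 0.1% at ranks 38 and 79 (an alternative added after seeing the data). With each replicate's own 259 strongest in place of the thresholded list it ran from 2 to 3, and it is 3 without replicate 1, where lin-14 joins. Several of these settings could not have lowered the count, so they add no support to it. The summits lay 997 bp upstream of ain-1 and inside sea-2, within every window used. Ranks 38 and 79 fall in the upper 130, and each replicate held both regions in its own 259 strongest. Pooled regions numbered 58 and 106 with the 2 kb and 10 kb windows, and 72 to 89 when a replicate was left out. The median signal was 19.70, and 11.59 to 12.75 when a replicate was left out, each list having its own scale. The share matched in both replicates was 32.9%, and 11.8% with summits at most 50 bp apart (11.2% over all pooled regions). Regions with CACGTG numbered 1 of 76, and 3 of 106 with 10 kb windows, against 2.49% of all pooled regions. They numbered 2 of 76 within 100 bp of the summit, 4 of 89 without replicate 1 and 2 of 72 without replicate 2. For these last settings no share over all regions was computed, so the counts are not read as particular to the 10 genes. The cause was not tested. Of the highest signals of single genes, 5 moved with both libraries kept: with 10 kb windows lin-46 had 45.11, hbl-1 31.48 and alg-1 46.68, and with 2 kb windows ain-2 had 20.13 and lin-46 19.03. No paired analysis was possible because 1 group was sampled. The absence of read counts limits what a missing region means: a region absent from a replicate's list may be below its cut of 30000.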
